A study of Mus musculus with 16 samples.

Results

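The voltage-gated sodium channel subunits described here are the genes listed under the names Scn1a, Scn2a1 (now usually called Scn2a), Scn3a and Scn8a, which encode pore-forming alpha subunits, and Scn2b, Scn3b and Scn4b, which encode beta subunits. They were chosen by gene name, with earlier results of these data known. The name Scn8a stands on 2 entries, so the 7 names correspond to 8 of the 37583 genes listed. The longer entry (ENSMUSG00000023033) spans 27 exons and is called Scn8a below. The shorter one (ENSMUSG00000090536) has 3 exons, lies 14599 bases upstream on the same strand, and is called the short Scn8a entry. All 8 entries had counts in each of the 16 libraries and passed the filter on low counts in every comparison.

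The samples were cortex and cerebellum of C57BL/6J mice that were either wild type or carried the Slc39a8 A391T (A393T) variant, a missense change in a metal ion transporter that is associated with schizophrenia in people. There were 4 mice of each genotype, and each mouse gave 1 cortex and 1 cerebellum library, so that each of the 4 groups had 4 libraries and the regions are paired within mice. The study's methods for wild-type mice describe males, whose opposite hemispheres went to glycan analysis, and give an age of 12 weeks. The sex and age of the A391T mice are not given in the sources used here. Cortex was dissected by blunt separation from the other regions, and whole tissue was extracted, so the libraries hold all cell types of the piece. Mice of both genotypes shared the same inbred background. In such bulk RNA, fewer cells that express a gene and less RNA per cell cannot be told apart.

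An alpha subunit forms the whole sodium pore with its voltage sensors, and its opening produces the upstroke of the action potential. Beta subunits are single-pass membrane proteins that bind the alpha subunit, shift its gating and carry it to the cell surface, and they also act as adhesion molecules. Both kinds are glycoproteins, and the sialic acids they carry are known to affect channel gating. Of the alpha genes, Scn1a is known for fast-spiking inhibitory neurons, Scn2a1 for excitatory neurons and thin unmyelinated axons, Scn8a for nodes of Ranvier and the distal axon initial segment, and Scn3a for the embryonic and newborn brain.

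The genes fall into clusters in the mouse genome. In the mm9 build used for the counts, Scn3a (chromosome 2, 65295175 to 65405684, minus strand), Scn2a1 (65458914 to 65605504, plus strand) and Scn1a (66108838 to 66278897, minus strand) lie in a row, with 53229 bases between the first pair and 503333 between the second. Scn8a is on chromosome 15 (100785829 to 100876360, plus strand), with the short entry at 100763860 to 100771229. The beta genes lie on chromosome 9. Scn2b (44925959 to 44938153) and Scn4b (44946520 to 44962235) lie side by side on the plus strand with 8366 bases between them. A gene on the minus strand spans Scn2b. Scn3b (40076801 to 40099203, plus strand) lies 4826755 bases from Scn2b. No exon of these 8 entries overlaps an exon of another annotated gene, and this holds for the gene across Scn2b too.

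Promoter windows of 300 bases, from 250 bases before a start to 50 after it, were available from RefSeq on the GRCm38.p6 build for 5 of the 7 names. They are shown for 2 pairs whose members differ in region pattern below, the neighbours Scn2b and Scn4b and the alpha genes Scn1a and Scn8a. CG dinucleotides are in capitals.
Scn2b, chr9:45117626-45117925, plus strand: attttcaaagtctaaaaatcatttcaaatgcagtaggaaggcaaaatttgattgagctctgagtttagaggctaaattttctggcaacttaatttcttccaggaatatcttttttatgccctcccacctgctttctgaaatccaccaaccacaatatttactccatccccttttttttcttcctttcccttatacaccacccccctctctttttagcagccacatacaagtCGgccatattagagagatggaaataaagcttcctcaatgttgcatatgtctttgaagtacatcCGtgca
Scn4b, chr9:45138374-45138673, plus strand: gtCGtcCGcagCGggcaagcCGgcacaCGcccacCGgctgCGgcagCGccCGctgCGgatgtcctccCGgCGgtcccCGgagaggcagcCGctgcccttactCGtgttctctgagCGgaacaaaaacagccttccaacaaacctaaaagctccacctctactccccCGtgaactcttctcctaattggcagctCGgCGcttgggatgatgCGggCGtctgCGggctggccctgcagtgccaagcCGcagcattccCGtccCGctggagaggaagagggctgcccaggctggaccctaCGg
Scn1a, chr2:66440788-66441087, minus strand: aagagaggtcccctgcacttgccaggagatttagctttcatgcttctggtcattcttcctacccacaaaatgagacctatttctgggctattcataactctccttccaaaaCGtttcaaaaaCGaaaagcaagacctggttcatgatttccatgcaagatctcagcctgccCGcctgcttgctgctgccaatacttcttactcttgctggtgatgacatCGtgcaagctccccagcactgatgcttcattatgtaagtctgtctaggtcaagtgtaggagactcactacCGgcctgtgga
Scn8a, chr15:100870395-100870694, plus strand: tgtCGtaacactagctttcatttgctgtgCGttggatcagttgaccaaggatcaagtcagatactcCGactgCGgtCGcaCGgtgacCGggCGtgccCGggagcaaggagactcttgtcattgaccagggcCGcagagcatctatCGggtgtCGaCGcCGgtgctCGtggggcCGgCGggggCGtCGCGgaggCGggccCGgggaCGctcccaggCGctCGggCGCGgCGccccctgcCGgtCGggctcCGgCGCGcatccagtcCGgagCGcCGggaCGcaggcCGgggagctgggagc
The neighbours Scn2b and Scn4b differ in base composition at their starts: the Scn2b window holds 2 CG pairs at 38.3% G+C and the Scn4b window 26 at 66.3%. The Scn8a window, the more CG-rich of the alpha genes shown, holds 38 CG pairs at 70% G+C, and the Scn1a window 5 at 47.3%. A second Scn8a start, whose window is not shown, holds 12 CG pairs at 53.3% G+C. Windows were matched by gene symbol, and whether either belongs to the long or the short Scn8a entry was not tested. Over 32851 promoter windows of this length the median was 7 CG pairs. At least 26 CG pairs were found in 16.9% of them, and at least 38 in 4.95%. The letters TATAAA, searched on both strands, occur in 13.6% of all windows, in none of the 4 shown and in 1 of the 7 windows held for these genes, that of a second Scn2a1 start. The letters TTCAGCACC, 1 part of the element bound by the repressor REST, occur in 0.371% of all windows and in none of the 7 windows held for these genes.

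Library depth was 20813432 to 30497206 counts on genes (median 24488842). The tissue labels fitted their markers: Tbr1, a transcription factor of cortical projection neurons, was at 112 to 130 TPM in cortex and 0.54 to 0.89 in cerebellum, and the granule cell receptor gene Gabra6 at 0.20 to 0.70 and 520 to 709. Slc39a8 itself was low in all groups (1.63 to 3.16 TPM), and the level of a missense allele does not check the genotype. In 8 of the 16 columns of the accompanying RPKM table, belonging to 4 of the 8 mice, the values match the counts of a library that bears the name of another mouse. Wild-type mice 1 and 2 and A391T mice 3 and 4 exchange names between the 2 sources, in both regions. The region labels are unaffected. Count-file names are used below, and the results that moved with the names are also given with the table's names or from the 4 mice whose names match. A few libraries stand apart. Genes of at least 8000 bases were low, against the median gene, in wild-type cortex mouse 4 (by a median log2 of -0.17) and A391T cerebellum mouse 1 (-0.23), while the other 14 libraries lay between -0.067 and 0.099. A391T cortex mouse 3 was low in striatum markers, and cerebellum mouse 3 of each genotype was high in 2 of the 7 interneuron markers, Sst and Vip, and in 2 of the 9 striatum markers, Drd2 and Tac1.

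Scn2b had the highest TPM of the 7 genes in both regions and Scn3a the lowest. TPM (per-million transcript level) corrects the count for transcript length and for library size, so that levels of different genes can be set side by side. In cortex, over 8 mice, the mean levels ran from Scn2b (258 TPM) through Scn4b (205), Scn8a (135), Scn2a1 (132), Scn3b (122) and Scn1a (35.8) to Scn3a (8.69). In cerebellum they ran from Scn2b (388 TPM) through Scn2a1 (138), Scn8a (113), Scn4b (111), Scn1a (54.1) and Scn3b (5.45) to Scn3a (0.614). Neighbours in each order were compared within libraries by an exact two-sided sign-flip permutation test, whose smallest p is 0.0078 with 8 libraries, with adjustment over the 12 pairs.

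Of those 12 neighbour pairs, 9 differed at adjusted p under 0.05. In cortex, Scn2b stood above Scn4b in 8 of 8 libraries (1.30-fold, adjusted exact p = 0.0117), and Scn4b above Scn8a in 7 of 8 (1.48-fold, adjusted exact p = 0.0208). Scn8a and Scn2a1 could not be ordered (1.02-fold, 4 of 8 libraries, adjusted exact p = 0.648), and neither could Scn2a1 and Scn3b (1.083-fold, 6 of 8 libraries, adjusted exact p = 0.0844). In cerebellum Scn2a1 stood above Scn8a in 8 of 8 libraries (1.24-fold, adjusted exact p = 0.0117), whereas Scn8a and Scn4b could not be ordered (1.01-fold, 4 of 8, adjusted exact p = 0.953). The steps down to Scn1a and on to the lowest genes held in 8 of 8 libraries in both regions: Scn1a stood 4.06-fold above Scn3a in cortex and 10.2-fold above Scn3b in cerebellum. The order depends on the lengths used. Without division by length Scn8a led the cortex order, and with lengths counted from annotated exons Scn2a1 stood above Scn3b.

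**Figure D1:**
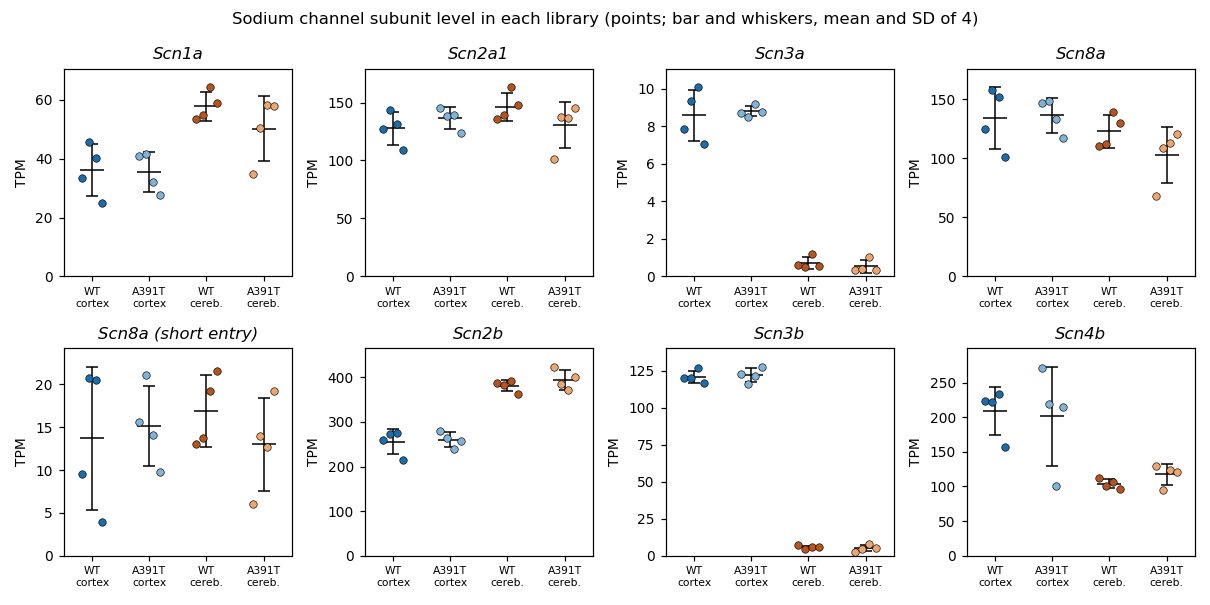
Level of each sodium channel subunit gene in every library. Each panel is 1 gene, with TPM on the vertical axis and the 4 groups along the horizontal axis. Points are libraries, placed within a group in the order of the mice, and bars mark the mean ± SD (n = 4). Scn3a and Scn3b fall from cortex to cerebellum with no overlap, Scn2b lies higher in cerebellum with no overlap, and the Scn4b point of A391T cortex mouse 3 lies at 101 TPM among 214 to 271.

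Scn3b, a beta subunit that binds without a disulfide bond, showed the sharpest regional difference. In wild-type cortex mice 1 to 4 gave 120, 120, 127 and 117 TPM, and in wild-type cerebellum 7.14, 4.49, 5.60 and 5.81. In A391T cortex the mice gave 123, 116, 122 and 128 TPM, and in A391T cerebellum 2.73, 4.67, 8.15 and 5.01. Every cortex library stood above every cerebellum library, and the cerebellum values rest on 75 to 177 counts each. Scn3b fell by 4.54 ± 0.11 (SE) on the log2 scale in wild-type cerebellum, a 23.3-fold difference (adjusted p = 5.2e-11), and the A391T difference was -4.70 ± 0.24, 26.0-fold (adjusted p = 8.1e-08). Adjusted p-values of log2 differences are from edgeR's quasi-likelihood test on the counts, adjusted by Benjamini-Hochberg over the whole gene table after filtering.

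Scn3a, the alpha subunit of the young brain, was low throughout and far lower in cerebellum. Wild-type cortex gave 7.84, 9.35, 10.1 and 7.06 TPM and wild-type cerebellum 0.611, 0.471, 1.17 and 0.533. A391T cortex gave 8.74, 8.51, 9.17 and 8.79 TPM and A391T cerebellum 0.335, 0.392, 1.05 and 0.344. The regions did not overlap, and mouse 3 was the highest cerebellum library in both genotypes. Those same cerebellum libraries held 106 and 143 TPM of Sst against 15.6 to 34.9 in the other 6, and 4.77 and 5.82 TPM of Vip against 0 to 0.426. Drd2 was at 10.7 and 10.3 TPM in them against 1.13 to 2.74, and Tac1, a neuropeptide gene, at 12.2 and 23.8 against 1.46 to 8.35. The summed interneuron markers, 2402 and 2558 TPM against 2205 to 5090, are mostly Pvalb, and the summed cortex neuron markers, 155 and 142 TPM and the lowest of their groups, mostly Bhlhe22, a gene higher in cerebellum than in cortex. Of cortex neuron markers low in cerebellum, Tbr1 was at 0.69 and 0.63 TPM in these libraries, within the 0.54 to 0.89 of the other 6. The part of tissue from other regions in the Scn3a levels was not tested. Scn3a fell by 3.77 ± 0.23 on the log2 scale in wild type (13.7-fold, adjusted p = 6.0e-08) and the A391T difference was -4.17 ± 0.30 (adjusted p = 1.1e-06). Without the cerebellum library of mouse 3 the values were -4.15 and -4.70.

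Scn2b, whose product is joined to the alpha subunit by a disulfide bond, went the other way. Wild-type cortex gave 260, 274, 275 and 215 TPM and wild-type cerebellum 387, 383, 391.5 and 363. A391T cortex gave 280, 264, 240 and 258 TPM and A391T cerebellum 424, 384, 371 and 400. Every cerebellum library stood above every cortex library. Scn2b was 0.42 ± 0.08 higher on the log2 scale in wild-type cerebellum (1.34-fold, adjusted p = 4.8e-04) and 0.50 ± 0.09 higher in A391T cerebellum (adjusted p = 5.3e-04), past the p threshold but short of the 2-fold criterion.

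Scn4b, the next gene along the chromosome, encodes the other disulfide-linked beta subunit, known for a cytoplasmic tail that can block the open pore and so give rise to resurgent current. Wild-type cortex gave 223, 223, 234 and 157 TPM and wild-type cerebellum 112, 101, 106 and 96.8, and these groups did not overlap. A391T cortex gave 271, 218, 101 and 214 TPM and A391T cerebellum 129, 94.8, 124 and 121. Here the groups overlapped through the cortex library of mouse 3 alone, which lay at 101. Scn4b fell by 1.16 ± 0.11 on the log2 scale in wild-type cerebellum (2.24-fold, adjusted p = 2.9e-06) and the A391T difference was -0.88 ± 0.26 (adjusted p = 0.013). Without A391T cortex mouse 3 the A391T difference was -1.11 (adjusted p = 1.65e-04), past the 2-fold criterion.

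The 2-fold call on Scn4b moved with the names given to the mice. With the names of the RPKM table the wild-type difference was -0.81 (adjusted p = 0.0062), short of 2-fold, and the A391T difference -1.19 (adjusted p = 1.4e-05), past it. In the mice whose names match, the Scn4b differences were -1.11 in wild type and -1.17 in A391T. The sign was the same in each.

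In cortex, the library lowest in Scn4b was also the lowest in striatum markers. The summed level of 9 striatum markers, all of them detected, was 440 TPM in A391T cortex mouse 3 and 1084 to 1560 in the other 7 cortex libraries. In the same library the dopamine receptor gene Drd2 was at 8.50 TPM against 41.3 to 69.3, and the adenosine receptor gene Adora2a at 12.1 against 52.3 to 85.7. Among the cerebellum libraries, the highest in markers, at 660 TPM, was also the highest in Scn4b, at 129 TPM. The next, with 645 TPM of markers, had Scn4b at 101 TPM, and the lowest, with 559, had it at 121. Striatum lies directly beneath the dissected cortex. The part of striatal tissue in the Scn4b levels was not tested.

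**Figure D2:**
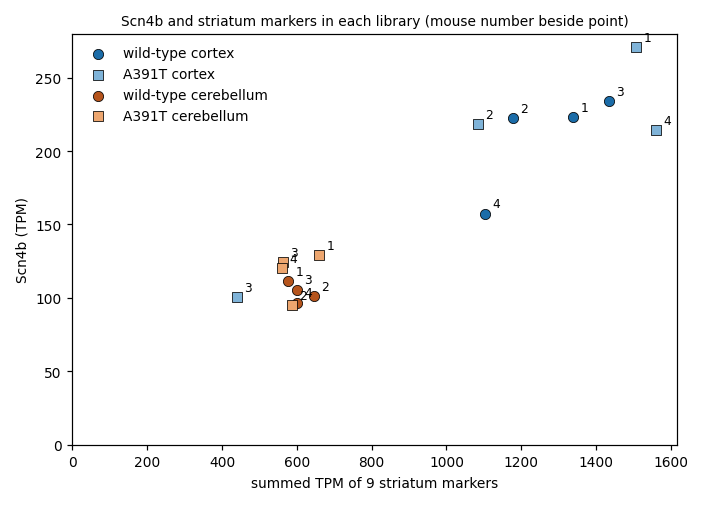
Scn4b against striatum markers in every library. The horizontal axis is the summed TPM of 9 striatum markers and the vertical axis the TPM of Scn4b, with 1 point per library marked by group. A391T cortex mouse 3 lies at 440 TPM of striatum markers, below the 559 to 660 of the cerebellum libraries, and at 101 TPM of Scn4b, within the cerebellum range of 94.8 to 129.

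The 3 alpha genes with higher levels differed by less than 2-fold between regions. Scn1a gave 33.5, 45.7, 40.4 and 25.0 TPM in wild-type cortex and 53.5, 54.7, 64.3 and 59.0 in wild-type cerebellum, with no overlap. It gave 40.9, 41.6, 32.0 and 27.5 TPM in A391T cortex and 34.7, 50.3, 58.2 and 57.9 in A391T cerebellum, with overlap through cerebellum mouse 1. Scn1a was 0.53 ± 0.14 higher on the log2 scale in wild-type cerebellum (adjusted p = 0.0070), and the A391T difference was 0.39 ± 0.16 (adjusted p = 0.057). Leaving out A391T cerebellum mouse 1, the library low in long genes, gave 0.51 for Scn1a (adjusted p = 0.0024). In the 2 A391T mice whose names match, 1 of which gave that library, the Scn1a value was -0.03. With the table's names the Scn1a difference was 0.79 in wild type (adjusted p = 1.22e-04) and 0.15 in A391T (adjusted p = 0.31), and in the matching wild-type mice it was 0.75.

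Scn8a leaned towards cortex. It gave 124, 158, 152 and 101 TPM in wild-type cortex and 110, 112, 139 and 130 in wild-type cerebellum. It gave 146, 149, 133 and 117 TPM in A391T cortex and 67.6, 109, 113 and 120 in A391T cerebellum. The groups overlapped in both genotypes. The difference for Scn8a was -0.27 ± 0.12 on the log2 scale in wild type (adjusted p = 0.068), and in A391T it fell by 0.52 ± 0.14 (adjusted p = 0.0086). The libraries low in long genes had the lowest Scn8a level of their groups, and without them the values came together, at -0.39 in wild type (adjusted p = 0.0024) and -0.39 in A391T (adjusted p = 5.7e-04). With the table's names they stood further apart, at -0.15 in wild type (adjusted p = 0.23) and -0.64 in A391T (adjusted p = 0.0013).

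Scn2a1 did not pass the threshold between regions in either genotype. It gave 127, 144, 131 and 109 TPM in wild-type cortex and 136, 139, 163 and 148 in wild-type cerebellum. It gave 145, 138, 139 and 124 TPM in A391T cortex and 101, 138, 137 and 146 in A391T cerebellum. The ranges overlapped, with differences of 0.05 ± 0.08 (adjusted p = 0.64) and -0.18 ± 0.09 (adjusted p = 0.11) on the log2 scale. It passed at a small size in A391T with the table's names (-0.22, adjusted p = 0.036), and in wild type, in the other direction, when scaled to library totals (0.17, adjusted p = 0.045). The short Scn8a entry was the least steady, with group means of 13.0 to 16.9 TPM and wild-type cortex libraries from 3.90 to 20.8, and its differences were 0.14 ± 0.39 and -0.34 ± 0.31 (adjusted p = 0.76 and 0.36).

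Counting calls at adjusted p under 0.05 and at least 2-fold, 3 of the 8 entries were lower in wild-type cerebellum (Scn3a, Scn3b and Scn4b) and 0 higher, against 14.2% lower and 10.5% higher among all 16040 genes tested. In A391T, 2 of 8 were lower (Scn3a and Scn3b) and 0 higher, against 14.9% lower and 9.8% higher among 16005 genes. By adjusted p alone, 2 entries were higher in wild-type cerebellum (Scn1a and Scn2b) and 3 lower, against 34.7% and 33.1% of all genes. In A391T, 1 was higher (Scn2b) and 4 lower (Scn3a, Scn3b, Scn4b and Scn8a), against 31.6% and 31.3%. In both genotypes, 5 of 8 entries in either direction lies near these background shares.

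**Figure D3:**
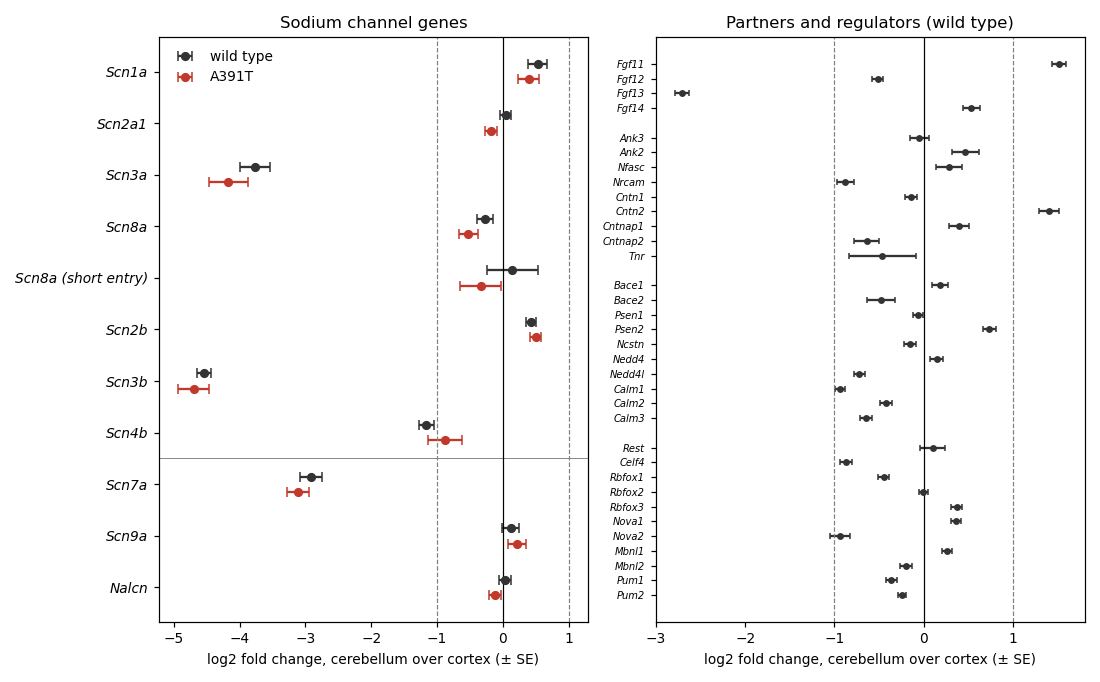
Regional log2 fold changes of the sodium channel genes and their partners. The horizontal axis is the log2 fold change of cerebellum over cortex with its SE, in wild type and A391T for the channel genes and in wild type for the partners; dashed lines mark 2-fold. Scn3a and Scn3b lie beyond -3.7 in both genotypes, while Scn2a1 lies near 0.

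Shares within a library do not depend on how libraries are scaled to one another. Of the summed alpha TPM, Scn1a made up 11.7% ± 1.07 (SD, n = 4) in wild-type cortex and 17.7% ± 0.195 in wild-type cerebellum, and 11.1% ± 1.21 and 17.7% ± 0.875 in A391T. Scn8a went from 43.5% ± 1.70 to 37.4% ± 0.885 in wild type and from 42.9% ± 0.877 to 35.9% ± 1.81 in A391T. For both genes the cortex and cerebellum shares did not overlap in either genotype, and this includes the libraries low in long genes. Scn3a fell from 2.81% to 0.208% in wild type and from 2.80% to 0.186% in A391T. These 6 shifts each had an exact permutation p of 0.0286, the smallest that 4 against 4 allows (adjusted p = 0.0381). The share of Scn2a1, 42.0% and 44.7% in wild type and 43.2% and 46.3% in A391T, did not pass (exact p = 0.114 and 0.0857). With the table's names it rose by 4.83 percentage points in A391T, which passed (exact p = 0.0286, adjusted p = 0.0327). These tests treat the 2 regions of a mouse as independent, and a paired test within 1 genotype cannot give a p below 0.125. Over the 8 mice of both genotypes, with regions paired within mice, an exact sign-flip permutation test gave Scn1a, Scn3a and Scn8a the smallest p it allows (0.0078, adjusted p = 0.0104), each with the same sign in 8 of 8 mice. The Scn2a1 share was 2.91 percentage points higher in cerebellum, in 6 of 8 mice (exact p = 0.0469, adjusted p = 0.0469). The 6 shifts of Scn1a, Scn8a and Scn3a passed with the table's names too, with Scn1a shifts of 7.27 percentage points in wild type and 5.26 in A391T and Scn8a shifts of -5.48 and -7.65.

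The make-up of the beta sum changed more. Scn2b held 43.7% ± 0.616 of the summed TPM of the 3 beta genes in wild-type cortex and 77.7% ± 0.809 in wild-type cerebellum, and 45.1% ± 4.65 and 76.4% ± 2.35 in A391T. Scn3b dropped from 20.8% to 1.17% in wild type and from 21.3% to 1.01% in A391T. Scn4b went from 35.5% ± 2.26 to 21.2% ± 0.636 in wild type and from 33.5% ± 8.08 to 22.6% ± 2.15 in A391T. The first 5 of these shifts reached the smallest exact p (0.0286, adjusted p = 0.0343), and the last, that of Scn4b in A391T, did not (exact p = 0.114). Paired within the 8 mice, Scn2b rose and Scn3b fell in 8 of 8 (exact sign-flip permutation p = 0.0078, adjusted p = 0.0117) and Scn4b fell in 7 of 8 (exact p = 0.0156). With the table's names the Scn4b shift passed in A391T (-16.01 percentage points) and not in wild type (-9.25).

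**Figure D4:**
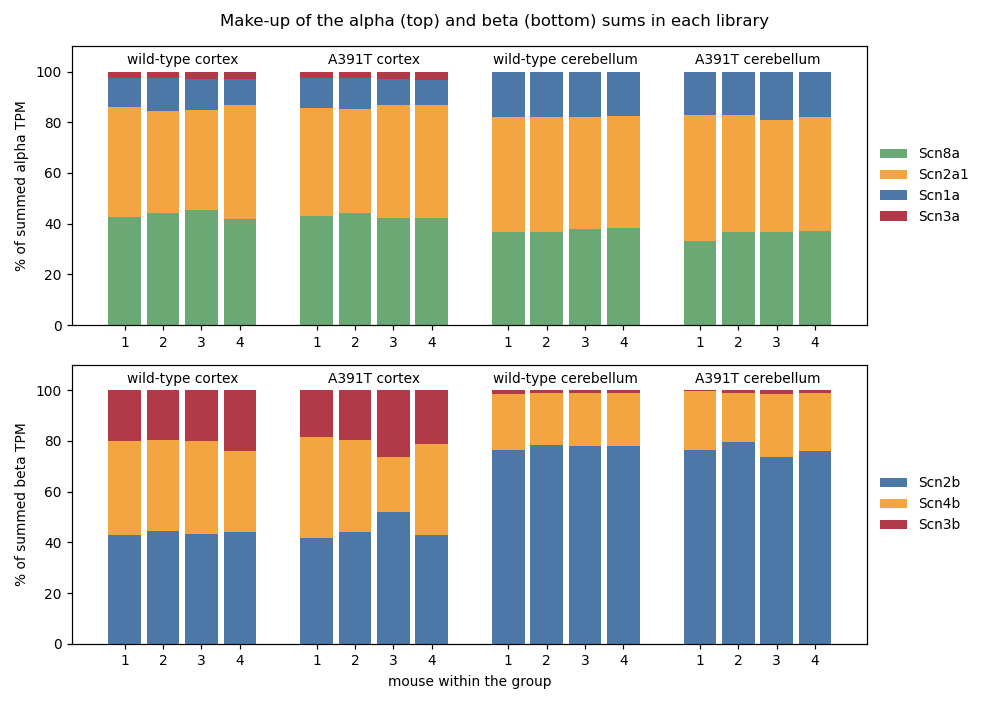
Make-up of the alpha and beta sums in each library. Each stacked bar is 1 library, the vertical axis is percent of the summed TPM of the 4 alpha genes (upper panel) or the 3 beta genes (lower panel), and libraries are grouped by region and genotype. Scn2b fills 73.7% to 79.4% of the beta bar in each cerebellum library and 41.5% to 51.9% in each cortex library.

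The summed alpha level was 306 ± 49.9 TPM (SD, n = 4) in wild-type cortex, 328 ± 31.0 in wild-type cerebellum, 317 ± 29.7 in A391T cortex and 284 ± 54.3 in A391T cerebellum. The summed level of the 3 beta genes was 586 ± 65.9, 491 ± 18.1, 584 ± 88.0 and 517 ± 30.8 TPM in the same groups. The ratio of beta to alpha was 1.93 ± 0.148 in wild-type cortex and 1.51 ± 0.156 in wild-type cerebellum (exact permutation p = 0.0286, adjusted p = 0.0571). In A391T it was 1.85 ± 0.295 and 1.90 ± 0.550 (exact permutation p = 0.914). The wild-type exact permutation p was 0.0857 with the table's names. Paired within the 8 mice the ratio was lower in cerebellum in 6 of 8 (exact sign-flip permutation p = 0.211). Neither genotype passes after adjustment, and A391T cerebellum mouse 1 alone gave the highest A391T ratio, at 2.73.

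Among 6 other sodium channel genes, Scn7a encodes a sodium sensor, Scn9a to Scn11a channels of sensory neurons, Scn4a the muscle channel, and Nalcn the sodium leak channel. Of these 3 had enough counts to be tested, and 1 of the 3, Scn7a, was called lower in cerebellum in both genotypes and 0 higher. Among all genes tested, 14.2% were called lower and 10.5% higher in wild type, and 14.9% and 9.8% in A391T. Scn7a fell by 2.92 ± 0.17 on the log2 scale in wild type (adjusted p = 4.43e-08) and the A391T difference was -3.11 ± 0.16 (adjusted p = 1.08e-07), from 2.83 to 3.75 TPM in cortex to 0.327 to 0.584 in cerebellum. Scn9a (0.12 and 0.22) and Nalcn (0.03 and -0.12) did not pass. Scn4a, Scn10a and Scn11a had at most 16 counts in any library and were not tested.

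Intracellular fibroblast growth factors bind the tail of the alpha subunit and shift its inactivation. All 4 were tested, and 1 was called higher and 1 lower in cerebellum in each genotype. The shares over all genes were 10.5% higher and 14.2% lower in wild type, and 9.8% and 14.9% in A391T. Fgf13 fell from 122 to 20.7 TPM in wild type, by 2.71 ± 0.08 on the log2 scale (adjusted p = 1.75e-10), and Fgf11 rose from 17.8 to 56.6 TPM, by 1.51 ± 0.08 (adjusted p = 1.55e-08). In A391T the values were -2.91 for Fgf13 and 1.62 for Fgf11. The median log2 difference of the list was 0.01 in wild type, against 0.02 over all genes tested.

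Of 9 scaffold genes of the axon initial segment and node of Ranvier that were found, 1 was called in wild type: Cntn2, an adhesion molecule next to the node, which rose from 65.1 to 191 TPM (log2 1.40 ± 0.11, adjusted p = 6.63e-07). In A391T Cntn2 rose by 1.25 and Nrcam, another adhesion molecule, fell by 1.09, which was -0.88 in wild type. Over all genes tested, 10.5% were called higher and 14.2% lower in wild type, and 9.8% and 14.9% in A391T. The median of the scaffold list was -0.05 in wild type. Of 10 genes for subunit processing, ubiquitin ligases and calmodulin, 0 were called in either genotype, with 1 higher and 5 lower by adjusted p alone in wild type. Of 11 regulators of sodium channel RNA, 0 were called, with 3 higher and 6 lower by adjusted p alone in wild type. By that criterion 34.7% of all genes were higher and 33.1% lower. The median log2 difference in wild type was -0.29 for the processing list and -0.19 for the regulators, against 0.02 over all genes tested. In A391T the medians of the growth factor, scaffold, processing and regulator lists lay between -0.22 and -0.21, against 0.03.

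No subunit gene differed between A391T and wild-type mice at adjusted p under 0.05. In cortex 0 of 8 entries were called, against 0.00632% (1 gene) of the 15815 tested. In cerebellum 0 of 8 were called, against 0% of 15668 genes. For the interaction of region and genotype 0 of 8 were called, against 0% of 16589 genes. At an unadjusted p under 0.05 the edgeR counts over all genes were 748, 1340 and 805, and with count-file names none of the 8 entries was among them. With the table's names Scn1a was under 0.05 unadjusted in cortex, Scn1a and the short Scn8a entry in cerebellum, and Scn1a, Scn2a1 and both Scn8a entries for the interaction. In the mice whose names match, Scn1a and Scn3a were so in cerebellum, and Scn1a, Scn2a1, Scn3a and Scn8a for the interaction. Their adjusted p-values were 0.47 to 0.88. The DESeq2 test called none of the 8 either.

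The sizes and errors of the genotype differences limit what could have been seen. In cortex they were small for the steady genes: Scn2a1 differed by 0.08 ± 0.07, Scn2b by 0.01 ± 0.08, Scn3a by 0.02 ± 0.09 and Scn3b by -0.00405 ± 0.05 on the log2 scale. They were less certain for Scn1a (-0.04 ± 0.17), Scn4b (-0.07 ± 0.23) and the short Scn8a entry (0.11 ± 0.39). In cerebellum the estimates were -0.16 ± 0.12 for Scn1a, -0.22 ± 0.14 for Scn8a, -0.35 ± 0.41 for Scn3a and 0.23 ± 0.11 for Scn4b, whose unadjusted edgeR p of 0.068 was the lowest of the 8 (adjusted p = 0.53). The interaction estimates included -0.12 ± 0.23 for Scn1a, -0.21 ± 0.12 for Scn2a1, 0.30 ± 0.30 for Scn4b and -0.47 ± 0.54 for the short Scn8a entry.

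Genotype differences moved with the names of the mice. With the table's names Scn1a differed by 0.37 in cortex (adjusted p = 0.88) and Scn4b by 0.40 (adjusted p = 0.88), both of the opposite sign to the values above. In the matching mice the cortex values were 0.31 for Scn1a and 0.30 for Scn4b. In cerebellum Scn1a was at -0.25 and Scn8a at -0.28 with the table's names. The Scn1a interaction was -0.63 with the table's names (adjusted p = 0.50) and -0.76 in the matching mice (adjusted p = 0.54), and that of Scn8a -0.48 and -0.72. No adjusted p of a subunit gene was under 0.05 under any of these names.

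Within a region, Scn1a, Scn2a1 and Scn8a moved together from library to library. After the mean of each region was subtracted, Pearson's r of log2(CPM + 1) over the 16 libraries was 0.93 for Scn1a with Scn8a, 0.93 for Scn2a1 with Scn8a and 0.83 for Scn1a with Scn2a1, where CPM stands for counts scaled to library size. Scn3a, the longest of the alpha genes at 16023 bases, gave 0.44 with Scn1a, 0.46 with Scn2a1 and 0.48 with Scn8a. The 2 Scn8a entries gave 0.89. The beta neighbours Scn2b and Scn4b gave 0.71, and Scn3a with Scn3b 0.64. These values describe 16 libraries from 8 mice, and 2 of the 16 are the libraries in which long genes as a class were low. The part of those libraries in the correlations was not tested.

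**Figure D5:**
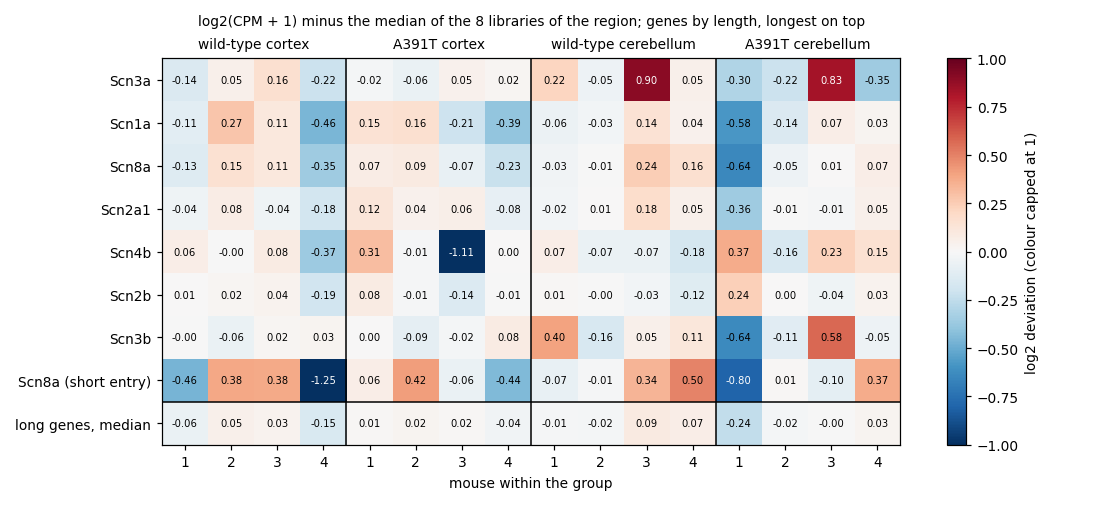
Deviation of each subunit gene from its region's median in every library. Colour gives log2(CPM + 1) minus the median of the 8 libraries of the region, genes are ordered by length, and the last row gives the median over 1580 genes of at least 8000 bases. Wild-type cortex mouse 4 and A391T cerebellum mouse 1 are low in Scn1a, Scn2a1 and Scn8a, as in that row, and A391T cortex mouse 3 is low in Scn4b.

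The genes whose levels followed each subunit most closely were looked for among 10381 genes with a mean of at least 10 CPM. Over the 16 libraries Scn3b was most like Mpped1 (r = 0.999), Gabra3 and Fnbp1l, and Scn3a most like Slit1 (0.998), Camkv and Enc1. Scn3a and Scn3b themselves gave r = 0.99. Scn2b was most like Sun2 (0.99), Macrod1 and Dlst, Scn1a most like Apbb2 (0.97), Smcr8 and Zfp646, Scn2a1 most like Eif4g3 (0.96), Fam168a and Arfgef1, and Scn8a most like Trim44 (0.98), Nbea and Adar. The short Scn8a entry was most like Nr2c2 (0.97), Ash1l and Camsap2. Scn4b was most like Tceal6 (0.95), Adora2a (0.93) and Ndrg4 (0.92).

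With the region means subtracted, the genes most like Scn4b were 3 that are known for striatal projection neurons: Adora2a (r = 0.89), the dopamine receptor gene Drd1a (0.86) and Ppp1r1b (0.85), which encodes a dopamine-regulated phosphatase inhibitor. All 3 were among the 9 striatum markers. In A391T cortex mouse 3, Scn4b lay at a log2 of -1.11 from the median of its region, and in every other library between -0.37 and 0.37. Among the cortex libraries, that one was also the lowest in all 3 markers. The part of that library in the Scn4b correlations was not tested. After the same subtraction Scn1a was most like Slc24a2 (0.96), Kalrn and the potassium channel gene Kcna1. Scn2a1 was most like Pcm1 (0.98), Eif4g3 and Cnksr2, and Scn8a most like Ralgapb (0.99), Itsn2 and Arhgap32. Scn3a was most like Slit1 (0.95), the glutamate receptor gene Grm5 and Camkv, Scn3b most like Mpped1 (0.94), Sh3kbp1 and Gabra3, and Scn2b most like Clint1 (0.91), Mapk8ip2 and Nell1. The short Scn8a entry was most like Ash1l (0.98), Nr2c2 and Adarb1.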

How the data were processed

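RNA of snap-frozen cortex and cerebellum was poly(A)-selected and sequenced by the authors as directional libraries, aligned to mm9 with STAR and counted on Ensembl genes with HTSeq without use of strand. The deposited files hold raw read counts per gene for each library, and the deposited RPKM table by the authors holds RPKM values, of which gene names, gene lengths and the library-name comparison were used here. Reads on no gene (10.2% to 13.2%), ambiguous reads (2.20% to 2.75%) and multiply aligned reads (8.41% to 12.1%) were left out of library sizes.

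TPM was computed from counts with the lengths of the authors' table, which differ from the annotated exon bases for several genes. Each comparison was fitted with edgeR 4.0.16 (R 4.3.3, quasi-likelihood test, filterByExpr, TMM) over all genes, with limma 3.58.1 and DESeq2 1.42.0 installed for the alternatives, and a gene was called at adjusted p under 0.05 and at least 2-fold. Shares, ratios and orders were tested by exact two-sided permutation tests (scipy 1.17.1). The fits were tested on simulated data.

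The members, gene lists and tests were chosen with earlier results of these data known. Named genes are all members, 6 other sodium channel genes, the called partner genes with the largest and smallest differences (3 of each), Slc39a8, and the 3 genes most correlated with each member. Nrcam, the markers that moved with a member, and the partners without a call were named after their values were seen. Replicate numbers mark the mouse, as the sample titles give it, so both regions of a mouse are paired by the labels. The correlation of deviations within a mouse was -0.30 to 0.30 (median -0.10), against -0.36 to 0.34 (median 0.045) between mice. The study's reporting summary describes the mice as littermates. Annotation came from Ensembl on NCBIM37, in which 98.9% of gene IDs were found, and promoter windows came from RefSeq on GRCm38.p6, matched by symbol or synonym. Some genes of the tables are not reported here. No coordinate was converted between builds. Alternatives covered normalization, filters, the tool, the block on mouse, the names of the mice, gene lengths and leaving out libraries.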

Additional observations from a re-analysis of the deposited data

Results flagged for a closer look

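The Scn3a level in A391T cerebellum mouse 3, 1.05 TPM, lay apart from the other 3 libraries of its group, the nearest of which was at 0.392. The gap was 0.920 of the whole range of the group, above Dixon's 95% critical value for 4 samples. The same library held 143 TPM of Sst and 5.82 TPM of Vip. Its summed interneuron markers were at 2558 TPM, within the 2483 to 5090 of its group. Its summed cortex neuron markers, 142 TPM, were the lowest of its group. It also held 10.3 TPM of Drd2 and 23.8 TPM of Tac1, against 1.13 to 2.74 and 1.46 to 2.37 in the other 3.

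The Scn4b level in wild-type cortex mouse 4, 157 TPM, lay below the other 3 at a gap of 0.853 of the range, the nearest being 223. This library held the lowest level of its group for every subunit entry. Its summed striatum markers, 1103 TPM, were also the lowest of the group, against 1177 to 1433. Over 32 groups of 4 libraries, chance alone would set about 1 in 20 apart in this way.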

How the results depend on the processing

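Without the 2-fold criterion, 5 members were called in wild type and 5 in A391T in place of 3 and 2. Counts of called members were 2 to 3 in both genotypes under the other alternatives run, and leaving out a library in turn gave 3 to 3 in wild type and 2 to 3 in A391T. With the mouse as a replicate block, the region counts of members were 3 and 2, and Scn4b differed by -1.15 in wild type and -0.81 in A391T. With both genotypes in 1 fit with the replicate block, Scn4b differed by -0.97, short of 2-fold, and with the block and the table's names by -0.75 in wild type and -1.20 in A391T. The block changed no other call at 2-fold. With regions paired within the 8 mice of both genotypes, chosen after seeing the data, the shares of all 4 alpha and all 3 beta genes passed. A test against a 2-fold change gave Scn4b an adjusted p of 0.13 in wild type. Library totals in place of TMM moved the median log2 difference of all genes from 0.02 to 0.14 in wild type and from 0.03 to 0.16 in A391T, and the Scn8a difference in wild type was then -0.15.

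Tests on 4 libraries a group have little room. The order within 1 genotype gave 0 neighbour pairs past the threshold in wild-type mice and 0 in A391T mice, where 4 libraries cannot give a p below 0.125. Leaving out a library took the counts of alpha and of beta shares past the threshold to 0 to 0, as did leaving out both libraries low in long genes (0 and 0). With 3 libraries against 4 the exact p cannot go below 0.0571, so these counts say nothing about stability. Each difference kept its sign on leaving out a library: Scn1a 5.53 to 6.37 percentage points in wild type and 6.15 to 6.94 in A391T, Scn8a -6.67 to -5.42 and -7.46 to -6.14. In A391T the log2 ratio of summed beta to alpha TPM over members was -0.018 with the table's names and -0.17 without both libraries low in long genes, against 0.016, and -0.17 to 0.097 on leaving out a library.

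Of log2 differences between regions, those that changed sign were Scn2a1 in wild type (-0.059 with all 16 libraries and the block, -0.019 without the libraries high in Sst and Vip, -0.021 without those low in long genes, -0.021 to 0.100 on leaving out a library), the short Scn8a entry in wild type (-0.046 in the same block fit, -0.16 without the libraries low in long genes, -0.16 to 0.42 on leaving out a library) and Scn1a in A391T (-0.027 in the mice whose names match). Most genotype differences lay near 0, and many changed sign. In cortex Scn1a was 0.37 with the table's names and 0.31 in matching mice (-0.17 to 0.079 on leaving out a library), Scn4b 0.40 and 0.30 (-0.26 to 0.15) and Scn3a -0.034 and -0.014 (-0.052 to 0.089). Without the libraries low in long genes Scn2b was -0.056 (-0.056 to 0.050 on leaving out a library), Scn3a -0.052, Scn8a -0.094 (-0.094 to 0.087) and the short Scn8a entry -0.18 (-0.18 to 0.39). Scn3b was 2.07e-04 with all 16 libraries in 1 model (-0.029 to 0.023 on leaving out a library). In cerebellum Scn3a ran from -0.90 to 0.00266 and Scn3b from -0.44 to 0.059 on leaving out a library, and Scn3b was 0.059 without the libraries low in long genes. The interaction was -0.37 for Scn4b and -0.012 for Scn2b with the table's names, and -0.040 for Scn4b in matching mice. Without the libraries low in long genes it was 0.13 for Scn1a (-0.25 to 0.014 on leaving out a library), 0.065 for Scn3b (-0.44 to 0.058), 8.49e-04 for Scn8a and 0.053 for the short Scn8a entry. The causes were not tested beyond the libraries named.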

Other observations

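The choroid plexus, the tissue that secretes cerebrospinal fluid, was unevenly present in the cerebellum libraries. The summed level of its 7 markers was 54.6 TPM in wild-type cerebellum mouse 3 and 52.6 in A391T cerebellum mouse 4, against 2399 to 8116 in the other 6 cerebellum libraries.

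Pvalb, which encodes the calcium buffer parvalbumin of Purkinje cells and fast-spiking interneurons, was at 4418 TPM in A391T cerebellum mouse 1 and at 1545 to 1871 in the other 7 cerebellum libraries. The summed level of 9 pan-neuronal markers in that library was 4690 TPM, against 5808 to 6218 in the other 7. This library had the lowest Scn1a, Scn2a1, Scn3a, Scn8a, Scn3b and short Scn8a levels of its group, and the highest Scn2b and Scn4b levels.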
